A study of Mus musculus with 40 samples.

Results

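Krüppel-like factors (KLFs) are zinc finger transcription factors, and 8 of their genes are described here in CD11b+ myeloid cells sorted from mouse brains: Klf2, Klf3, Klf4, Klf6, Klf7, Klf10, Klf11 and Klf13. They were taken by name from 3 deposited tables of 54513 named genes each, and all 8 passed the filter on low values in every comparison. The study asked whether 7aaRGD, a synthetic peptide with an integrin-binding RGD motif, changes the myeloid cells of experimental gliomas, alone or with an antibody against the checkpoint receptor PD-1. In the control peptide 7aaRAE the RGD motif is replaced by RAE. RNA was measured by RNA sequencing, and every value below is in RPKM, a read density per length of transcript and per sequenced library, unless it is called a difference. Differences are in log2(RPKM + 1), given with their standard error (SE), and were tested with limma, with p-values adjusted over all protein-coding genes tested by the Benjamini-Hochberg method at a threshold of 0.05.

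All animals were male and 10 to 12 weeks old. In the first experiment C57BL/6 mice carried intracranial GL261 tdTomato+Luc+ cells, a murine glioma line, and received water (vehicle), 7aaRGD or 7aaRAE through osmotic pumps filled at 2 mg/ml. Their cells were sorted 21 days post-implantation (DPI), and cells of naïve mice without a tumor served as a reference. Each of the 4 groups has 3 samples, and each sample pools 2 animals. In the second experiment GL261-bearing mice received water or 7aaRGD by pump for 28 days, together with anti-PD-1 (10 mg/kg intraperitoneally on days 8, 10, 12 and 14) or control IgG. The groups are vehicle (4 samples), 7aaRGD (4), anti-PD-1 (3) and 7aaRGD with anti-PD-1, called combination (3), each sample being 1 animal. In the third experiment athymic nude mice (Foxn1nu), which lack a thymus and hence most T cells, carried U87-MG-RFP+ cells, a human glioblastoma line, and received water, 7aaRGD or 7aaRAE until 21 DPI, with 3 samples per group and 2 animals per sample.

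The 3 tables were normalized apart, so no test was made between them, and a level set across them is a description. The number of reads per sample is unknown. For the 28 DPI samples the repository labels state nude mice, whereas the study describes C57BL/6 mice. H2-Ea-ps, an MHC class II gene that C57BL/6 mice do not express, was at 0.0976 RPKM or lower in all 12 and all 14 GL261 samples and between 22.5 and 374 RPKM in the 9 nude mouse samples. The summed level of 8 genes of CD11b+ cells was between 3381 and 7661 RPKM in every sample, with none of the 8 near 0, while 7 neuron markers summed to at most 2.61 RPKM. In the U87-MG table the column names give the group but not which sample, so its columns are numbered in the order in which they stand within a group. The second 7aaRGD and the second 7aaRAE columns stood apart: over genes they correlated best with each other (r = 0.990), and their mean r with the other columns was 0.976 and 0.971, against 0.982 to 0.986 for the rest.

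KLFs bind GC-rich and CACCC-containing DNA through 3 zinc fingers at their carboxyl end, and differ in the partners their amino ends recruit. Klf2, Klf4, Klf6 and Klf7 mainly activate transcription and work with acetyltransferases such as p300. Klf3 represses through the corepressor CtBP. Klf10 and Klf11, both induced by transforming growth factor beta (TGF-beta), and Klf13 bind the corepressor SIN3A. In myeloid cells Klf2 is known for keeping monocytes quiescent, Klf4 for monocyte differentiation and for macrophage polarization, and Klf6 for inflammatory signaling through NF-kappaB.

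The promoters are shown first, because the groups below differ in which members moved together. On mm10 the 8 genes lie on separate chromosomes: Klf7 on chromosome 1 (64029447 to 64122282), Klf4 on chromosome 4 (55527143 to 55532466), Klf3 on chromosome 5 (64803388 to 64832901), Klf13 on chromosome 7 (63886351 to 63938915), Klf2 on chromosome 8 (72319033 to 72321656), Klf11 on chromosome 12 (24651274 to 24662789), Klf6 on chromosome 13 (5861482 to 5870394) and Klf10 on chromosome 15 (38291463 to 38300706). Each value is a sum over the exons of the gene. Klf3 and Klf7 overlap other genes on their own strand (C230096K16Rik and Mir6899), so their values may be affected by the overlap, in a direction that is not known. Of the 8 members, 7 have a promoter in the RefSeq table used (GRCm38.p6), and Klf10 does not. A few were chosen for print: Klf2, whose level differed most between the experiments, and Klf4 and Klf13, which among the 7 had the largest differences between vehicle and naïve cells. Capitals mark the GC box GGGCGG, the CACCC box and the MEF2 site on either strand. The Klf2 window is chr8:72318812-72319032 on the plus strand, which leaves out 29 bases inside the annotated gene. The CACCC box of Klf2, 19 to 15 bases before the RefSeq transcript start, lies in these bases and is not printed. Distances from the transcript start include them. The Klf4 window is chr4:55532476-55532725 and the Klf13 window chr7:63938916-63939165, both on the minus strand, and all are written 5′ to 3′.
Klf2: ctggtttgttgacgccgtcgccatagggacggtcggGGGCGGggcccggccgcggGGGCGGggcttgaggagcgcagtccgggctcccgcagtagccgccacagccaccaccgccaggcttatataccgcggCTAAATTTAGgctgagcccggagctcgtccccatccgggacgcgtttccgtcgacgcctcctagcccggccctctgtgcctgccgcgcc
Klf4: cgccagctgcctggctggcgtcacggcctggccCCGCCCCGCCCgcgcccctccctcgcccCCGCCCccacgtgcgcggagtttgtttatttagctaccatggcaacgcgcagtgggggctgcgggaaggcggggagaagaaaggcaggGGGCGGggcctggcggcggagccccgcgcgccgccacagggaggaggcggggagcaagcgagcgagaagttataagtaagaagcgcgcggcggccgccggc
Klf13: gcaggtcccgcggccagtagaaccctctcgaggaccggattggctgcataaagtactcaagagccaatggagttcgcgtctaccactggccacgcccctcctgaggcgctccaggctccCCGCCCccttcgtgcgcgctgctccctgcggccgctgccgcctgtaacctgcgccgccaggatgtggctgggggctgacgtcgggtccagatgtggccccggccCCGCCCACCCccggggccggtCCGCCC

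All 7 windows of 250 bases held at least 1 GC box, which 32.7% of the 32851 promoter windows of the same length held, and their GC content was 59.2% to 78.4%. The windows end at the RefSeq transcript start, and some reach into the gene as the mm10 annotation draws it. All 250 bases of the Klf7 window lie inside it, as do 133 of Klf3, 97 of Klf11, 29 of Klf2 and 7 of Klf6. Motifs counted in these bases are thus not upstream by that annotation. Klf3 held 6 GC boxes, Klf4 and Klf11 held 4 each, Klf13 held 3, Klf2 held 2, and Klf6 and Klf7 held 1 each. CACCC, the letters KLFs themselves bind and present in 52% of all windows, occurred in 4 of the 7: 5 times in Klf3, 3 times in Klf7 and once in Klf2 and Klf13. In Klf13 the CACCC box shares its first base with the last base of a GC box. Klf2 alone held a MEF2 site, the sequence through which the kinase ERK5 drives Klf2, from 118 to 109 bases before the transcript start, and 0.508% of all windows held one. None of the 7 held a cyclic AMP response element (TGACGTCA, 1.55% of windows), an AP-1 site (TGANTCA, 6.75%), a glucocorticoid receptor half-site (AGAACA, 16.1%) or a CArG box (1.47%). A match of letters is not a bound site, and binding was not measured in these samples.

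**Figure D1:**
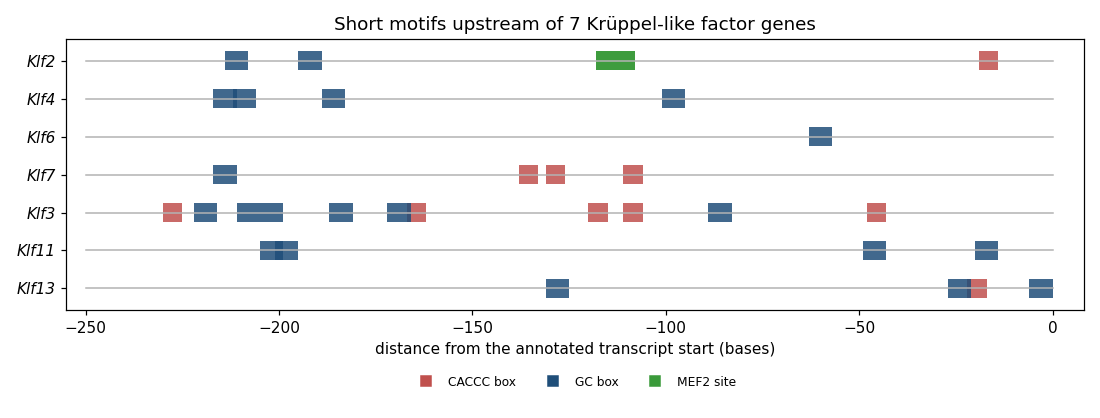
Short motifs in the 250 bases before the RefSeq transcript start of 7 KLF genes (x axis, distance in bases), with 1 line per gene and colored boxes for the CACCC box, the GC box and the MEF2 site. By the mm10 gene annotation the whole Klf7 window and parts of the Klf3, Klf11, Klf2 and Klf6 windows lie inside the gene. GC boxes occur in all 7 genes, and the green MEF2 site lies in Klf2 only.

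Klf6 was the most or the next most abundant member in all 11 groups, Klf2 and Klf13 were each among the top 3 in 8 of them, and Klf11 was the least abundant in 10 of the 11 groups, with Klf7 lowest in the remaining one. RPKM is a level per length, so genes can be compared on it. In naïve CD11b+ cells Klf2 made up 32.0% of the summed level of the 8 genes and Klf6 29.5%, followed by Klf3 (17.3%) and Klf13 (9.78%). At 21 DPI in vehicle mice Klf6 led with 33.7%, Klf2 gave 21.6% and Klf13 20.0%. At 28 DPI in vehicle mice Klf13 led with 36.7%, Klf6 gave 33.2% and Klf2 only 6.0%. In U87-MG vehicle cells Klf2 made up 52.2%, Klf6 21.1% and Klf13 7.2%.

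Klf2 differed most between the experiments. It was 47.9, 49.9 and 56.5 RPKM in the naïve samples and 49.9, 63.2 and 34.0 RPKM in the 21 DPI vehicle samples. In the 28 DPI vehicle samples it was 8.01, 9.75, 11 and 8.88 RPKM, and in the U87-MG vehicle columns 190.1, 116 and 108 RPKM. The ranges of the 3 vehicle groups did not overlap. The 21 DPI and 28 DPI vehicle groups share the tumor line and, by the study's description, the strain. They differ in experiment, time, control IgG and animals per sample, which cannot be told apart. The U87-MG vehicle group differs from both in experiment, strain and tumor line, which cannot be told apart either. Across all 11 groups Klf2 ran from 5.32 RPKM in a 28 DPI 7aaRGD sample to 192 RPKM in a U87-MG 7aaRGD column. Klf7 and Klf11 stayed low throughout, between 3.11 and 8.23 RPKM and between 0.945 and 4.78 RPKM.

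**Figure D2:**
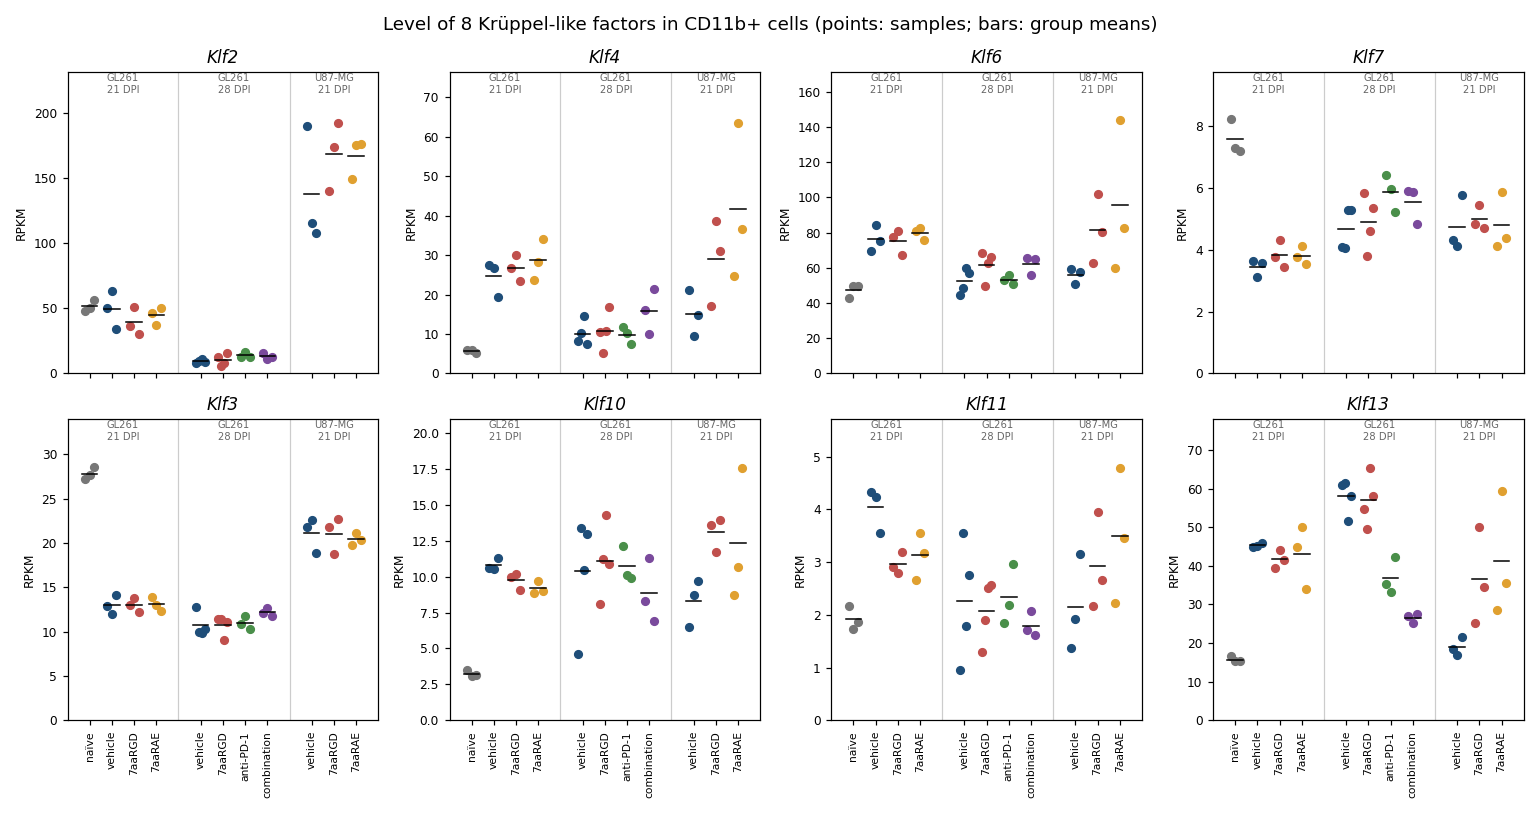
Level in RPKM (y axis, linear from 0) of the 8 genes in every sample; x axis, the 11 groups of the 3 tables, which were normalized apart; points, samples; bars, group means. Klf3 and Klf7 are highest in the gray naïve samples, Klf4, Klf10 and Klf13 are lowest there within the first table, and Klf2 is highest in the U87-MG columns.

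The first comparison asked how the cells of a glioma-bearing brain differ from those of a naïve brain, and it moved more members than any treatment. Vehicle mice also had surgery and a pump, which the study does not describe for naïve mice, so tumor and procedure cannot be told apart. Klf4, Klf10, Klf13, Klf11 and Klf6 rose in vehicle mice at 21 DPI, Klf3 and Klf7 fell, and Klf2 did not pass the test. These 5 higher and 2 lower of 8 stand beside 34.6% and 48.2% of the 9725 genes tested. Vehicle and naïve samples were fully separated for each of these 7, as they were on the higher side for 35.6% and on the lower side for 49.8% of all genes. With only 8 members, whether their shares differ from those of all genes cannot be told and was not tested. The median difference over all genes was -0.14, and 0.01 after median-of-ratios scaling, so the differences are to be read relative to it.

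Among the activators, Klf4 was 5.88, 5.91 and 5.18 RPKM in naïve cells and 27.6, 26.7 and 19.4 RPKM in vehicle cells. The lowest vehicle sample was far higher than the highest naïve sample, and the difference was 1.93 ± 0.13 (SE, n = 3 and 3, limma adjusted p = 2.13e-06, 95% interval 1.63 to 2.22). Klf6 rose from 42.8, 49.8 and 49.7 RPKM to 69.4, 84.5 and 75.3 RPKM, a difference of 0.68 ± 0.09 (limma adjusted p = 0.00016). Klf7 moved the opposite way, from 8.23, 7.30 and 7.20 RPKM in naïve cells to 3.65, 3.11 and 3.57 RPKM, a difference of -0.95 ± 0.07 (limma adjusted p = 6.28e-06). For Klf2, whose values are given above, the vehicle samples spanned the naïve ones. Its difference of levels had a 95% interval from -0.56 to 0.35 (limma adjusted p = 0.628).

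Klf3, the CtBP-binding repressor, was 27.2, 27.7 and 28.6 RPKM in naïve cells and 12.9, 11.9 and 14.1 RPKM in vehicle cells. The replicates of both groups lay close together, and Klf3 fell by 1.05 ± 0.07 on the log2 scale (limma adjusted p = 1.79e-06). All 3 SIN3A-binding members rose. Klf10 was 3.47, 3.10 and 3.12 RPKM in naïve and 10.6, 10.5 and 11.3 RPKM in vehicle cells (1.48 ± 0.06, limma adjusted p = 1.74e-07). Klf13 was 16.5, 15.4 and 15.2 RPKM in naïve and 44.9, 45.1 and 45.9 RPKM in vehicle cells, the narrowest vehicle group of all members relative to its mean (45.3 ± 0.53, SD). Its difference was 1.47 ± 0.05 (limma adjusted p = 8.67e-08). Klf11 was 2.17, 1.73 and 1.86 RPKM in naïve and 4.33, 4.24 and 3.56 RPKM in vehicle cells (0.79 ± 0.09, limma adjusted p = 5.11e-05). At levels this low the added constant of 1 RPKM shrinks the difference, and with a constant of 5 RPKM it was 0.39.

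The make-up of the sort moved with these differences. Microglia markers (10 genes) summed to between 16037 and 16534 RPKM in the naïve samples and between 1346 and 1952 RPKM in the vehicle samples, and all 10 were lower. Monocyte and macrophage markers (11 genes) summed to between 82.8 and 101 RPKM in naïve and between 4068 and 5857 RPKM in vehicle samples, and 10 of 11 were higher. In such bulk samples fewer cells of a type and less RNA per cell cannot be told apart, and the part of these markers in the KLF differences was not tested.

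Genes around the KLFs moved in both directions in the same comparison. Their counts stand beside 34.6% of all genes higher and 48.2% lower, with a median of -0.14. The part of the marker differences in these genes was not tested either. Of the TGF-beta receptors and SMADs, which carry the signal that induces Klf10 and Klf11, 8 of 10 tested were lower and 1 was higher, with a median of -0.77. Tgfbr1, the type I receptor, fell by 2.40 ± 0.11 on the log2 scale from a mean of 376 to 70.9 RPKM, and Smad3 (-2.32 ± 0.13), the type II receptor Tgfbr2 (-1.87 ± 0.09) and the inhibitory Smad7 (-1.18 ± 0.08) fell as well. Klf10 and Klf11 themselves were higher in the same samples. The kinases and MEF2 factors that drive Klf2 and Klf4 were lower in 6 of 7 tested and higher in none (median -0.71), led by Mef2c (-2.55 ± 0.09) and Mef2a (-1.33 ± 0.06). Ubiquitin ligases that mark KLF proteins for degradation were lower in 5 of 6 and higher in none (median -0.76), with Smurf1 at -1.44 ± 0.05 and Siah1a at -1.13 ± 0.08.

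Of the corepressor partners, 3 of 8 were higher and 3 lower. Sap30, a subunit of the SIN3A complex, rose by 2.30 ± 0.09 and Sin3b by 0.43 ± 0.05, while Ctbp2, a partner of Klf3, fell by 1.03 ± 0.06 on the log2 scale. Among the 4 acetyltransferases, Crebbp (-0.51 ± 0.08), Kat2a (-0.40 ± 0.08) and Ep300 (-0.37 ± 0.08) were lower and Kat2b (0.43 ± 0.08) was higher. Of the 8 genes known as KLF2 targets, 7 were tested, 4 were higher and 2 lower, with a median of 1.68. The cell cycle inhibitor Cdkn1a (4.21 ± 0.11) and the integrin gene Itgb7 (3.94 ± 0.15) rose, and S1pr1, the sphingosine-1-phosphate receptor, fell by 3.47 ± 0.17 on the log2 scale. Klf2 itself did not pass the test.

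Immediate early genes, the fast-induced class to which Klf4, Klf6 and Klf10 are often counted, were higher in 18 of 24 tested and lower in 3, with a median of 1.80. Ier3 (4.50 ± 0.15), Dusp5 (3.54 ± 0.11), Maff (3.45 ± 0.08) and Csrnp1 (2.90 ± 0.10) led them. Of 9 other KLF genes 3 were tested: Klf9 rose by 1.21 ± 0.24, while Klf12 (-1.96 ± 0.07) and Klf16 (-0.45 ± 0.06) fell. The related SP factors were lower in 3 of 4, by 0.18 to 0.63, and the call of Sp3, the smallest of these, was lost with median-of-ratios scaling.

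**Figure D3:**
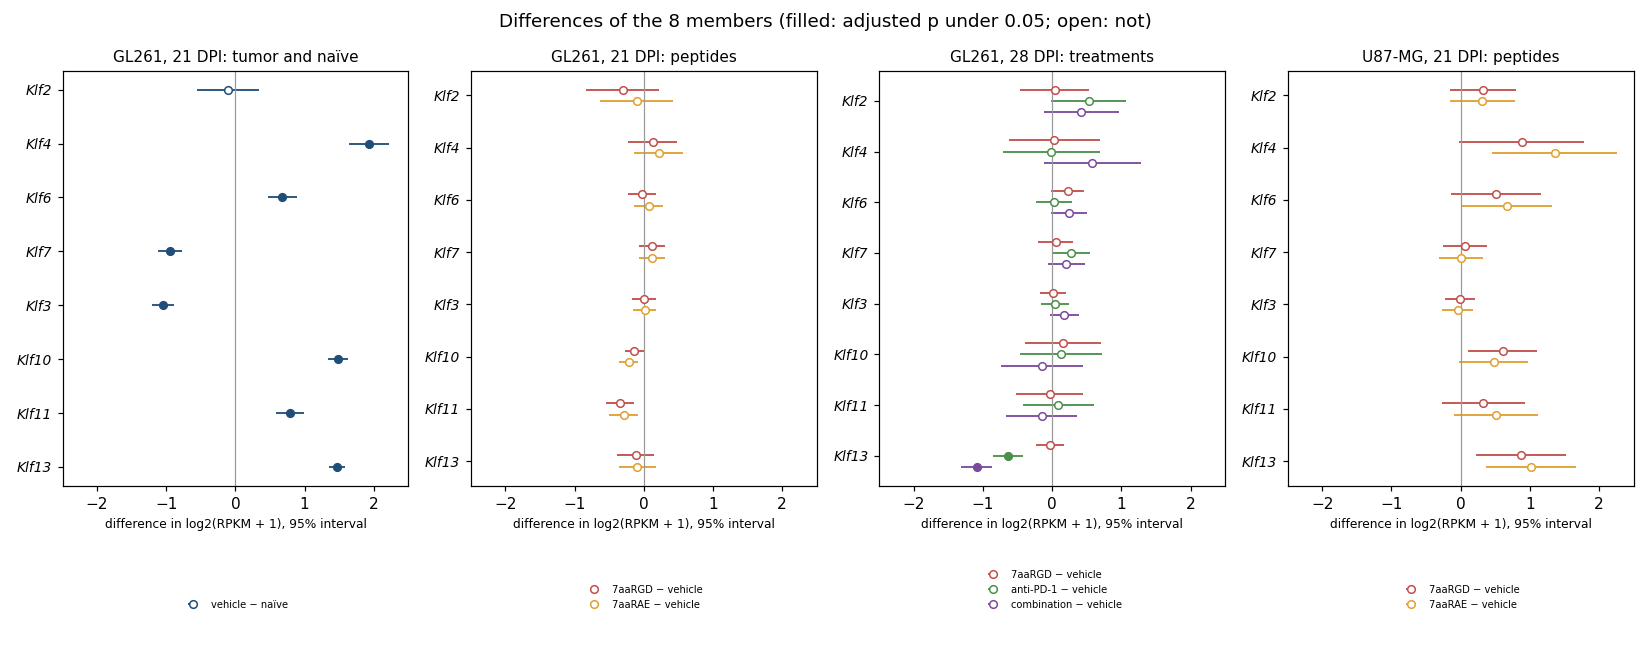
Difference in log2(RPKM + 1) with its 95% interval (x axis) for each of the 8 genes (y axis) in 4 panels; filled circles have an adjusted p under 0.05, open circles do not. In the left panel 7 of 8 circles are filled, in both peptide panels none are, and at 28 DPI only Klf13 is filled, for anti-PD-1 and for the combination.

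The second comparison asked what the peptides did to the cells of GL261 gliomas at 21 DPI. No member passed the test under either peptide. With 7aaRGD 0 of 8 had an adjusted p under 0.05, beside 0.148% of all genes, and 1 of 8 an unadjusted p under 0.05, beside 13.6%. With 7aaRAE these were 0 of 8 beside 0% and 2 of 8 beside 6.37%. Both comparisons share the vehicle samples.

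Only the SIN3A-binding members had a peptide group that did not overlap with vehicle. Klf11 was 4.33, 4.24 and 3.56 RPKM with vehicle, 2.91, 2.79 and 3.18 RPKM with 7aaRGD and 2.65, 3.55 and 3.18 RPKM with 7aaRAE. All vehicle samples were higher than all peptide samples, although the highest 7aaRAE sample came close to the lowest vehicle sample. The difference from vehicle was -0.35 ± 0.09 for 7aaRGD (unadjusted p = 0.00423, limma adjusted p = 0.195) and -0.29 ± 0.09 for 7aaRAE (unadjusted p = 0.0111, limma adjusted p = 0.717). Klf10 was 9.99, 10.2 and 9.10 RPKM with 7aaRGD and 8.89, 9.68 and 8.98 RPKM with 7aaRAE, all lower than the vehicle samples given above. For 7aaRAE its difference was -0.22 ± 0.06 (unadjusted p = 0.00603, limma adjusted p = 0.717). Klf13 was 39.5, 44.0 and 41.4 RPKM with 7aaRGD and 45.0, 50.0 and 33.9 RPKM with 7aaRAE, lower than all vehicle samples with 7aaRGD and overlapping them with 7aaRAE. The vehicle samples of Klf13 lay close together (SD 0.53). With 7aaRGD the unadjusted p was 0.0504 for Klf10 and 0.343 for Klf13, and the limma adjusted p was 0.368 and 0.711. Groups without overlap on the lower side were thus found for 3 of 8 members with 7aaRGD, beside 5.12% of all genes, and for 2 of 8 with 7aaRAE, beside 6.49%.

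Sums of cell markers differed between the groups in the same samples, although no single marker of these lists passed the test with either peptide. With 7aaRAE the microglia and NK cell sums overlapped with those of vehicle. Microglia markers summed to between 2015 and 2670.4 RPKM with 7aaRGD and between 1738 and 2205 RPKM with 7aaRAE, against the 1346 to 1952 RPKM of vehicle. Monocyte and macrophage markers summed to between 3289.9 and 3628 RPKM with 7aaRGD and between 3724 and 3868 RPKM with 7aaRAE, both lower than in all vehicle samples. NK cell markers summed to between 15.7 and 28.1 RPKM with vehicle, 28.7 and 51.8 RPKM with 7aaRGD, and 17.9 and 33.9 RPKM with 7aaRAE. Their part in the values of Klf10, Klf11 and Klf13 was not tested.

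The remaining members overlapped between vehicle and both peptides. With 7aaRGD and 7aaRAE together, Klf2 was 30.2 to 50.8 RPKM, Klf4 23.5 to 34.0 RPKM, Klf6 67.1 to 82.6 RPKM, Klf7 3.43 to 4.31 RPKM and Klf3 12.3 to 13.9 RPKM. The peptides differ in their RGD or RAE motif, and no member passed the test between them at the matched dose and time (0 of 8 beside 0% adjusted, 0 of 8 beside 5.52% unadjusted). The 95% intervals of 7aaRGD minus 7aaRAE were -0.73 to 0.33 for Klf2, -0.44 to 0.27 for Klf4, -0.30 to 0.11 for Klf6 and -0.18 to 0.19 for Klf7. They were -0.18 to 0.16 for Klf3, -0.06 to 0.22 for Klf10, -0.26 to 0.15 for Klf11 and -0.30 to 0.24 for Klf13. These intervals bound the difference between the peptides and do not show that they act alike.

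The third comparison asked what 7aaRGD, anti-PD-1 and their combination did at 28 DPI, and of the 8 members only Klf13 passed the test in any of its contrasts. Klf13 was 60.8, 61.5, 51.5 and 58.1 RPKM with vehicle and 54.7, 49.5, 65.4 and 58.1 RPKM with 7aaRGD. With anti-PD-1 it was 35.3, 33.1 and 42.4 RPKM, and with the combination 27.0, 25.2 and 27.6 RPKM. The 7aaRGD samples spanned the vehicle samples, every anti-PD-1 sample lay lower than these, and every combination sample lay lower still.

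Klf13 fell by 0.64 ± 0.10 on the log2 scale with anti-PD-1 (n = 3 and 4, limma adjusted p = 0.000977), as 1 of 8 members beside 12.2% of all genes. With the combination it fell by 1.09 ± 0.10 (limma adjusted p = 5.44e-06, 95% interval -1.31 to -0.87), 1 of 8 beside 25.8%. Against 7aaRGD alone the difference of the combination was -1.06 ± 0.10 (limma adjusted p = 2.19e-05), 1 of 8 beside 23.5%. Leaving out each sample in turn kept all 3 calls, with differences from -0.74 to -0.57, from -1.15 to -1.06 and from -1.13 to -1.0. These 3 contrasts share samples.

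Whether the combination went beyond anti-PD-1 alone was not settled for Klf13. The 2 groups did not overlap, and the difference was -0.45 ± 0.11 (unadjusted p = 0.00108), but the limma adjusted p was 0.0869. In that contrast 0 of 8 members passed beside 0.0411% of all genes, and 1 of 8 had an unadjusted p under 0.05 beside 15%. The interaction of peptide and antibody, combination minus 7aaRGD minus anti-PD-1 plus vehicle, was -0.42 ± 0.14 (unadjusted p = 0.0116, limma adjusted p = 0.588). No member passed it, beside 0% of all genes, and 1 of 8 had an unadjusted p under 0.05, beside 8.16%. With 7aaRGD alone no member passed (0 of 8 beside 0.647%, unadjusted 0 of 8 beside 14.6%), and the difference of Klf13 had a 95% interval from -0.23 to 0.17.

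Klf9, a KLF outside the 8 that also binds SIN3A, showed a pattern like that of Klf13 with a larger range. It was 19.1, 32.0, 20.8 and 24.0 RPKM with vehicle, 21.7, 12.7, 22.5 and 16.2 RPKM with 7aaRGD, 1.70, 4.12 and 8.46 RPKM with anti-PD-1, and 0.971, 0.698 and 1.06 RPKM with the combination. Klf9 fell by 2.27 ± 0.32 with anti-PD-1 (limma adjusted p = 0.000526) and by 3.69 ± 0.32 with the combination (limma adjusted p = 3.36e-06). Klf9 is known as a glucocorticoid-induced gene. Fkbp5 and Tsc22d3 are glucocorticoid-responsive genes chosen after their values were seen. Their vehicle means were 63.5 and 58.1 RPKM and their combination means 6.75 and 13.1 RPKM. In each the combination samples lay lower than all vehicle samples, as for 28.8% of all genes. With anti-PD-1 Fkbp5 ran from 5.98 to 44.6 RPKM and Tsc22d3 from 13.1 to 38.6 RPKM. The lowest vehicle samples of these genes were at 44.1 and 43.1 RPKM. A part of glucocorticoids in the Klf9 and Klf13 values was not tested.

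**Figure D4:**
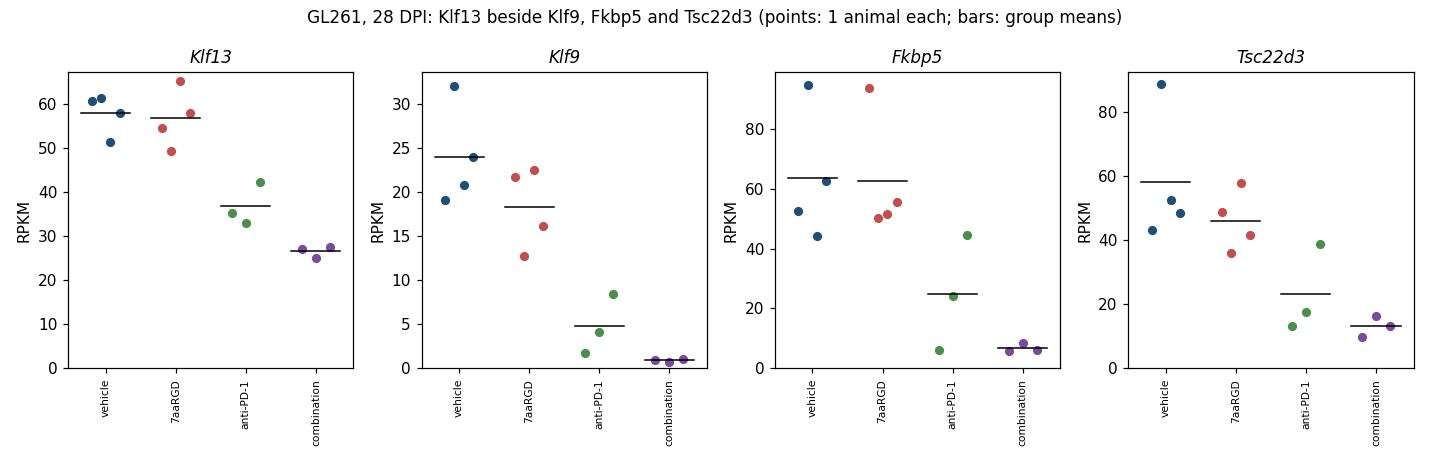
Level in RPKM (y axes, linear from 0, each with its own scale) of Klf13, Klf9, Fkbp5 and Tsc22d3 in the 4 groups at 28 DPI (x axis); points, 1 animal each; bars, group means. In every panel the combination samples lie lower than all vehicle and 7aaRGD samples, and for Klf13 and Klf9 the anti-PD-1 samples do too.

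Markers of other cells also differed between these groups. NK cell markers (8 genes) summed to between 3.79 and 10.5 RPKM with vehicle, 4.61 and 53.9 RPKM with anti-PD-1, and 25.3 and 76.0 RPKM with the combination. Dendritic cell markers (7 genes) summed to between 1.90 and 3.97 RPKM, 4.45 and 18.4 RPKM, and 14.1 and 17.5 RPKM in the same groups. Microglia markers summed to between 1536 and 2162 RPKM with vehicle and between 2226 and 2427 RPKM with the combination. With 7aaRGD they summed to between 1655 and 3170 RPKM and with anti-PD-1 to between 1678 and 2491 RPKM, both overlapping with vehicle. With the combination 5 of 11 monocyte and macrophage markers were higher and 1 lower. Their part in the Klf13 difference was not tested.

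The other members did not pass the test at 28 DPI. Klf2, lower here than in the other experiments, was 12.9, 16.3 and 12.8 RPKM with anti-PD-1 and 15.4, 11.1 and 12.5 RPKM with the combination, each sample being higher than all 4 vehicle samples (as for 15.4% of all genes with anti-PD-1 and 20% with the combination), while 7aaRGD samples ran from 5.32 to 15.6 RPKM. Klf7 was 4.09, 4.05, 5.28 and 5.30 RPKM with vehicle and 6.42, 5.97 and 5.21 RPKM with anti-PD-1, which overlap. Its difference of 0.28 ± 0.13 had an unadjusted p of 0.045 and a limma adjusted p of 0.128. Klf4 ran from 5.08 to 21.5 RPKM over the 14 samples, Klf6 from 44.8 to 68.2 RPKM and Klf3 from 9.10 to 12.8 RPKM. Klf10 and Klf11 were spread most within vehicle, where the first sample was lowest for both. Klf10 was 4.65, 13.4, 10.5 and 13 RPKM there and Klf11 0.945, 3.55, 1.78 and 2.76 RPKM.

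Among all genes, 17.5% were called higher with the combination and 10.8% with anti-PD-1, beside the lower shares given above. In the combination against vehicle, 13 of 26 immediate early genes tested were higher and 1 lower, with a median of 0.38 beside -0.05 for all genes. Egr2 rose by 1.72 ± 0.26, Atf3 by 1.48 ± 0.26, Nr4a2 by 1.35 ± 0.17 and Egr3 by 1.32 ± 0.23, whereas Klf4, Klf6 and Klf10 did not pass the test. Of the known KLF2 targets 3 of 6 were higher and none lower, among them Itgb7 (0.94 ± 0.20) and Cdkn1a (0.89 ± 0.30). Of the TGF-beta receptors and SMADs 3 of 10 were higher and none lower: Smad3 (0.72 ± 0.16), Smad7 (0.50 ± 0.14) and Tgfbr2 (0.34 ± 0.10). Wwp1 (-0.52 ± 0.12) and Smurf2 (-0.45 ± 0.09), ubiquitin ligases, were the 2 of 6 that fell. Ctbp1, the corepressor that Klf3 recruits, fell by 0.31 ± 0.06 on the log2 scale, as 1 of 8 corepressors, and Ep300 rose by 0.26 ± 0.07, as 1 of 4 acetyltransferases. Sp4 (0.38 ± 0.09) and Sp1 (0.25 ± 0.07) were higher among 4 SP factors, and Map3k3 (-0.26 ± 0.09) and Map2k5 (-0.24 ± 0.07) lower among 7 genes upstream of Klf2 and Klf4, the call of Map3k3 being lost with median-of-ratios scaling. With anti-PD-1 alone Itgb7 (0.80 ± 0.20), Smad3 (0.49 ± 0.16), Egr2 (0.85 ± 0.26) and Atf3 (0.83 ± 0.26) rose as well, and Wwp1 (-0.40 ± 0.12) and Smurf2 (-0.28 ± 0.09) fell. No gene of the lists in this paragraph passed in the peptide comparisons at 21 DPI or with 7aaRGD alone at 28 DPI. Of the cell markers, Cx3cr1 passed with 7aaRGD alone at 28 DPI, a call lost with median-of-ratios scaling and with quantile normalization.

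The fourth comparison asked what the peptides did in nude mice with human U87-MG gliomas. No member passed the test with 7aaRGD (0 of 8 beside 0%) or with 7aaRAE (0 of 8 beside 0.0103%), and no gene of the lists did. The study named Klf4, Klf6, Klf10 and Klf13 for 7aaRGD in these samples, so their direction there is not independent evidence. Unadjusted, 2 of 8 members had a p under 0.05 with 7aaRGD, beside 3.77% of all genes, and 3 of 8 with 7aaRAE, beside 7.72%. Groups without overlap on the higher side were found for 3 of 8 with 7aaRGD, beside 4.43%, and for 3 of 8 with 7aaRAE, beside 7.01%.

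Klf13 was 18.3, 16.8 and 21.5 RPKM with vehicle, 25.3, 50.0 and 34.5 RPKM with 7aaRGD and 28.5, 59.5 and 35.5 RPKM with 7aaRAE. Every peptide column was higher than all vehicle columns, and the highest of each peptide group was the second, the one that stood apart. The difference from vehicle was 0.87 ± 0.29 for 7aaRGD (unadjusted p = 0.0141, limma adjusted p = 0.941) and 1.02 ± 0.29 for 7aaRAE (unadjusted p = 0.00609, limma adjusted p = 0.432). Without the second columns of both peptides, an alternative chosen after the data were seen, these were 0.63 and 0.73.

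Klf4 was 21.1, 9.53 and 14.8 RPKM with vehicle, 17.2, 38.7 and 31.0 RPKM with 7aaRGD, which overlap, and 24.7, 63.6 and 36.6 RPKM with 7aaRAE, which do not. Its differences were 0.89 ± 0.40 (unadjusted p = 0.054, limma adjusted p = 0.941) and 1.36 ± 0.40 (unadjusted p = 0.00771, limma adjusted p = 0.463). They were 0.65 and 1.01 without the second columns. Klf6 was 59.3, 50.6 and 57.6 RPKM with vehicle, 62.7, 102 and 80.2 RPKM with 7aaRGD and 59.7, 144 and 82.7 RPKM with 7aaRAE. All peptide columns were higher than the vehicle columns, the first of 7aaRAE by a narrow margin. The differences of Klf6 were 0.52 ± 0.29 for 7aaRGD (unadjusted p = 0.107, limma adjusted p = 0.941) and 0.67 ± 0.29 for 7aaRAE (unadjusted p = 0.0445, limma adjusted p = 0.629), and 0.34 and 0.33 without the second columns.

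Klf10 was 6.51, 8.73 and 9.70 RPKM with vehicle, 13.6, 11.7 and 13.9 RPKM with 7aaRGD and 8.74, 10.7 and 17.5 RPKM with 7aaRAE. The 7aaRGD columns were higher than all vehicle columns, and the 7aaRAE columns overlapped with them. The difference of Klf10 for 7aaRGD was 0.61 ± 0.22 (unadjusted p = 0.0233, limma adjusted p = 0.941) and was 0.68 without the second columns. Klf11 was 1.36, 1.93 and 3.16 RPKM with vehicle and 2.16 to 4.78 RPKM over the peptide columns. Klf2 was 140.0 to 192 RPKM, Klf3 18.7 to 22.7 RPKM and Klf7 4.12 to 5.87 RPKM over the peptide columns, each overlapping with vehicle.

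Other genes also differed between the groups in these columns, although none of those named here passed the test with either peptide. NK cell markers (8 genes) summed to between 7.76 and 21.3 RPKM with vehicle, 1.54 and 7.43 RPKM with 7aaRGD, and 0.459 and 2.27 RPKM with 7aaRAE, without overlap with vehicle. Microglia markers (6518 to 11081 RPKM over the 9 columns) and monocyte and macrophage markers (338 to 762 RPKM) overlapped between vehicle and both peptides. Fkbp5, chosen after its values were seen, was 10.4, 8.80 and 10.3 RPKM with vehicle, 26.0, 42.4 and 22.8 RPKM with 7aaRGD and 35.2, 61.8 and 35.4 RPKM with 7aaRAE, all peptide columns being higher. Klf9 and Tsc22d3, described with Fkbp5 above, overlapped between vehicle and 7aaRGD. Their lowest 7aaRGD columns were at 0.583 and 25.5 RPKM, and their highest vehicle columns at 0.804 and 30.5 RPKM. With 7aaRAE all columns of Klf9 and Tsc22d3 were higher than the vehicle columns, the lowest being at 1.05 and 34.9 RPKM. The part of NK cells in the KLF values was not tested.

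Between the peptides no member passed the test in these mice (0 of 8 beside 0% adjusted, 0 of 8 beside 3.37% unadjusted, all limma adjusted p = 1.0). The 95% intervals of 7aaRGD minus 7aaRAE were -0.46 to 0.48 for Klf2, -1.38 to 0.43 for Klf4, -0.81 to 0.49 for Klf6 and -0.26 to 0.38 for Klf7. They were -0.18 to 0.26 for Klf3, -0.37 to 0.64 for Klf10, -0.78 to 0.42 for Klf11 and -0.80 to 0.50 for Klf13. By group mean the control peptide was higher than 7aaRGD for Klf4, Klf6 and Klf13, within these intervals.

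**Figure D5:**
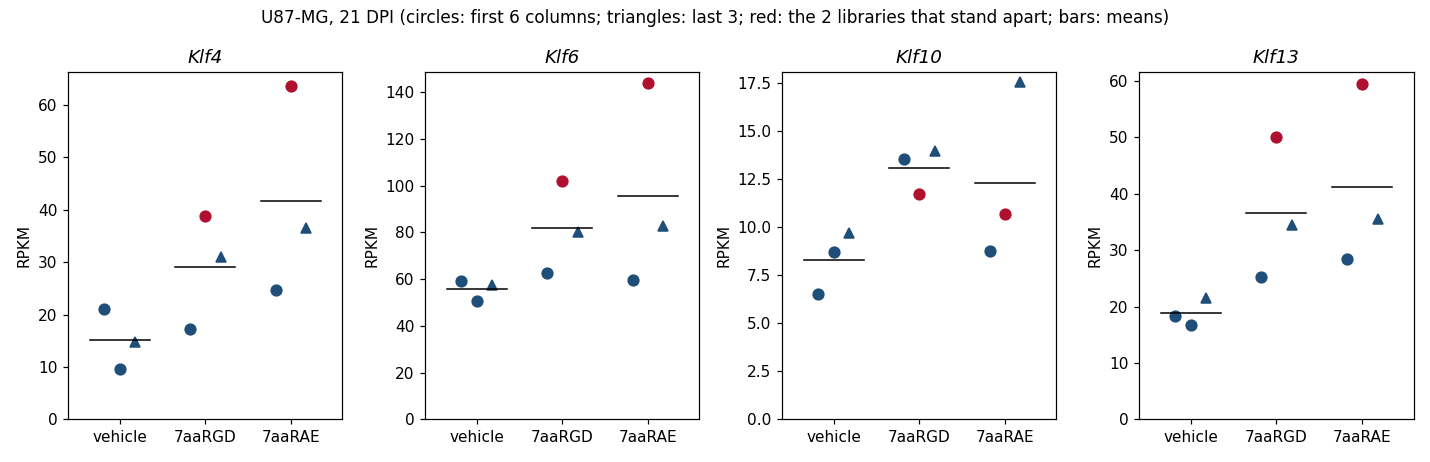
Level in RPKM (y axes, linear from 0) of Klf4, Klf6, Klf10 and Klf13 in the U87-MG table; x axis, groups; circles, first 6 columns; triangles, last 3; red, the 2 columns that stood apart; bars, group means. The red points are the highest of their group for Klf4, Klf6 and Klf13 and the lowest or middle ones for Klf10.

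The way the members varied together is a description across samples, which share group differences and libraries, so no test is given. Klf4 and Klf6 correlated in all 3 tables (Pearson r of log2(RPKM + 1) of 0.93 over 12 samples, 0.68 over 14 and 0.93 over 9). Klf10 and Klf11 did so with r of 0.88, 0.80 and 0.53. Klf3 and Klf7, both higher in naïve cells, had an r of 0.98 in the first table, 0.15 in the second and -0.45 in the third. Klf6 and Klf13 had 0.94, -0.19 and 0.95.

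Among 8901 other genes, those whose pattern was most like a member were named by the mean of the 3 r values. For Klf13 these were Ddit4 (0.95), Taf1d (0.95) and Jdp2 (0.95), with Ddit4 at 0.98, 0.95 and 0.93 in the 3 tables. Klf4 was nearest to Ccrl2 (0.84), Cited2 (0.83) and Fos (0.82), and Klf6 to Cited2 (0.86), Resf1 (0.78) and Fzd5 (0.78). Klf3 was nearest to Tmem206 (0.89), Cybc1 (0.85) and Rab35 (0.84), and Klf7 to Sike1 (0.81), Zcchc8 (0.81) and Wsb1 (0.80). For Klf11 the nearest were Gas2l3 (0.80), Cwc22 (0.80) and Snx12 (0.79), for Klf10 H3f3b (0.74), Ndufaf6 (0.73) and Spata5 (0.72), and for Klf2 Jund (0.73), Rbm19 (0.66) and Jun (0.66), the lowest values of the 8.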

How the data were processed

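RNA of FACS-sorted CD11b+ cells was sequenced from strand-specific libraries. The study's methods name Trimmomatic for trimming, STAR with mm10 for alignment and Picard for duplicates, and the authors counted fragments on the reverse strand with HTSeq 0.11.1. The authors deposited 3 tables of 12, 14 and 9 value columns, all 35 of which were used. The deposited values were taken as RPKM plus a constant of 2, because silent genes hold exactly 2 and the remainder times exon length adds up to almost equal totals across samples. How the authors normalized them is not given in the sources used here, and 3.13% to 8.78% of values per sample were under the constant. Depth is unknown, so no counting interval is given, and a test for counts was not used. The anti-PD-1 and combination samples numbered 4 and naïve nude mice were not analysed here.

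RPKM was the deposited value minus 2, with negative values set to 0, and limma 3.58.1 (R 4.3.3, eBayes with a trend) was fitted to log2(RPKM + 1). Protein-coding genes entered where the samples of a fit averaged 1 RPKM or more. All tumor-bearing groups of a table were fitted together, naïve samples with vehicle alone. The test was tried on simulated data. Positions are from the mm10 annotation and promoters from RefSeq. Differences of members are given where the unadjusted p was under 0.05 or where the study names the gene in that comparison, list genes as at most the 4 largest past the threshold (1 of them is not reported here), and genes of like pattern as the 3 with the highest mean r. The members and gene lists were chosen with earlier results of these data known. Alternatives were other constants, filters, scalings, gene sets and fits, the replicate block, and each sample left out.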

Additional observations from a re-analysis of the deposited data

Results flagged for a closer look

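Klf3 had 1 sample far from the others in each of 2 groups at 28 DPI. Its highest vehicle sample was at 12.8 RPKM, with the others between 9.80 and 10.2 RPKM, and its lowest 7aaRGD sample was at 9.10 RPKM, with the others between 11.1 and 11.5 RPKM. Such a gap was looked for in 16 combinations of member and group of 4 samples, and chance gives about 1 in 20.

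For 7aaRGD minus vehicle, Klf10 was higher in every U87-MG column (0.61 on the log2 scale) and lower in every GL261 sample at 21 DPI (-0.14) than all vehicle samples of the same table. Klf13 did the same (0.87 and -0.12). None of these differences passed the test. The limma adjusted p was 0.941 for both genes in U87-MG, and 0.368 (Klf10) and 0.711 (Klf13) in GL261. Such separation was found for 4.43% of all genes on the higher side in U87-MG and 5.12% on the lower side in GL261. The control peptide 7aaRAE minus vehicle had the same signs for both genes in both experiments. The difference between the 2 experiments was not tested, since the tables were normalized apart, and strain and tumor line cannot be told apart.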

How the results depend on the processing

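No printed difference of a member changed its sign under any alternative, and leaving out single samples ended no call. With a threshold of 1 on the absolute log2 difference added, 4 members in place of 7 passed in vehicle minus naïve (Klf3, Klf4, Klf10 and Klf13) and 0 in place of 1 with anti-PD-1. With only the 2 groups compared in the fit, 2 passed with anti-PD-1 and 2 with the combination, each time Klf2 and Klf13. The count for the combination ranged from 1 to 2 when each sample was left out, with Klf3 added without vehicle replicate 1. At an adjusted p under 0.1, 1 member, Klf13, passed in combination minus anti-PD-1. The other 181 counts under an alternative and 143 with a sample left out stayed within 1.5 times the reported ones. With a constant of 5 RPKM in place of 1, vehicle minus naïve was 0.94 for Klf10 and -0.57 for Klf7, and with quantile normalization it was 0.41 for Klf6.

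Whether replicate numbers pair the samples was not settled. Residuals of same-numbered samples correlated over 0.1 in 1 of 9 pairs at 21 DPI and 3 of 19 at 28 DPI. The values ran from -0.77 to 0.12 and from -0.50 to 0.37. How the values were adjusted before deposit is unknown, and a shared effect already taken out would not show in these correlations. With the replicate block, 7 members passed in vehicle minus naïve, 1 with anti-PD-1, 1 with the combination and 0 with either peptide, as without it. For the U87-MG table no paired analysis was possible because its columns carry no number; the column set as a term there left 0 calls. Replicate residuals of both GL261 tables span 1 dimension less than their number allows (7 of 8, 9 of 10), and with 1 residual degree of freedom less the limma adjusted p of Klf13 was 0.00227 with anti-PD-1 and 1.98e-05 with the combination. Depth is unknown, so what it limits could not be computed.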
